A study of Mus musculus with 12 samples.

Results

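The regions described here are the autosomal H4K20me3 domains of 10 kb or wider in mouse embryonic stem cells. They were taken from the 1 deposited list of domains on the mouse build mm10, as each domain on chromosomes 1 to 19 that starts at or after base 3000000 and spans at least 10000 bases. The members were chosen by their width and position alone, and 1700 domains, called wide below, met the rule. The other 24030 autosomal domains from that base on are narrower, and the whole list holds 28210. The widths of wide domains are therefore given as a description.

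The series profiled H4K20me3 by ChIP-seq in the embryonic stem cell line dTKO at 0, 12, 24 and 48 h after auxin (100 μg/ml) and dTAG13 (0.5 μM) were added. Each time has 3 replicates, so that there are 12 libraries. Every group carries Suv39h1fl/fl, Suv39h2-/- and Setdb1fl/fl, the 0 h baseline included, and all libraries come from that 1 line. The list gives only where each domain lies and names no library or time. No value below therefore compares times, has a replicate error or has a known sequencing depth, and wide and narrower domains are compared as descriptions, with no test. The 95% intervals (CI, exact Clopper-Pearson) treat domains as separate draws, although neighbouring domains are not, and cover counting error only. No expression values were used here, so the labelled cell type was not checked against its markers.

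H4K20me3 is a histone mark of constitutive heterochromatin. Kmt5b and Kmt5c write it on chromatin where HP1 proteins have bound H3K9me3, the mark that the Suv39h enzymes and Setdb1 lay down. In mouse embryonic stem cells the mark is known at repeats beside the centromeres, at endogenous retroviruses and at imprinted control regions.

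Annotated transcription starts inside wide domains were few, and 7 promoter windows show how unlike each other they were. Each is RefSeq sequence of GRCm38.p6, the assembly behind mm10, from 250 bases before to 50 after the start, written 5′ to 3′ on the gene's strand with every CG dinucleotide, which reads the same on both strands, in capitals. Orc6 (chr8:85299382-85299681, plus strand) encodes a subunit of the origin recognition complex and has a CG-rich start. The window of Zfp629, a zinc finger gene, held the most CG of the protein-coding starts in wide domains (chr7:127614818-127615117, minus strand). Slc22a13, an organic anion transporter gene (chr9:119209056-119209355, minus strand), stands for the starts without any CG, and its domain of 15.3 kb was the most isolated wide one, 422 kb from any other domain.
Orc6: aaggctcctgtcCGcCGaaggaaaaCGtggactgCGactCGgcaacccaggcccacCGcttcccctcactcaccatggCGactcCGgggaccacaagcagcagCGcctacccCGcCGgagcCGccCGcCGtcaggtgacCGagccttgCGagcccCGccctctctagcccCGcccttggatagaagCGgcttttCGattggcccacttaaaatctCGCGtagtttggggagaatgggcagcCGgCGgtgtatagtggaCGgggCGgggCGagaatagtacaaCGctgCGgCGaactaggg
Zfp629: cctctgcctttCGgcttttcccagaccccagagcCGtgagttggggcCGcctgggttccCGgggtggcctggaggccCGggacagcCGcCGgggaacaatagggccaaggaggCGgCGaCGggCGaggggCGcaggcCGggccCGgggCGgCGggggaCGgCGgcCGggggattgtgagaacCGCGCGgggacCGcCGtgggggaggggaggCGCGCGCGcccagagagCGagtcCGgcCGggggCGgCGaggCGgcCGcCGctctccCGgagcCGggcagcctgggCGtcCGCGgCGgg
Slc22a13: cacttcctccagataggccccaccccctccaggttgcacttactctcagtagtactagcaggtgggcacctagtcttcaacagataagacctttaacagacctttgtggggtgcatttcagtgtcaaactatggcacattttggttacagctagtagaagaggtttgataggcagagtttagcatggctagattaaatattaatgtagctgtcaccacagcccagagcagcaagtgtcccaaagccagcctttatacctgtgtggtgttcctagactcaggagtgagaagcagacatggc

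The next 4 windows are shown because other annotated starts repeat them. Gm13304 (chr4:42114537-42114836, plus strand) has the same 300 bases as Gm10591, whose start lies in another wide domain at base 42612123 of the chromosome. Gm52796 (chr5:144672467-144672766, plus strand) has the same 300 bases as Gm52787, whose start, at base 122195769 of that chromosome, lies in a narrower domain. Gm46854 (chr4:51876397-51876696, plus strand) and Gm46950 (chr6:7724023-7724322, plus strand) are annotated long noncoding RNA genes on different chromosomes, both with their start in a wide domain, and their windows differ at 1 position of 300.
Gm13304: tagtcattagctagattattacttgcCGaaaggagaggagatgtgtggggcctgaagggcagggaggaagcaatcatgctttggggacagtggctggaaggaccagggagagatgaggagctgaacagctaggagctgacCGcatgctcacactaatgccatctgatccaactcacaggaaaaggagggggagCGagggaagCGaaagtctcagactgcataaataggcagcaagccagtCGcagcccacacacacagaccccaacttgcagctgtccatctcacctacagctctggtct
Gm52796: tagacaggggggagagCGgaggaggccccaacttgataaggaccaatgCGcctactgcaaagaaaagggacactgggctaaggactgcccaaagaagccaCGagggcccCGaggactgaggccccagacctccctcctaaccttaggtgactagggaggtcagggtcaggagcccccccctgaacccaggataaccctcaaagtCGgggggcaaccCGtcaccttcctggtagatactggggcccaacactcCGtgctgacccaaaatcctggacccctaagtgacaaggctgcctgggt
Gm46854: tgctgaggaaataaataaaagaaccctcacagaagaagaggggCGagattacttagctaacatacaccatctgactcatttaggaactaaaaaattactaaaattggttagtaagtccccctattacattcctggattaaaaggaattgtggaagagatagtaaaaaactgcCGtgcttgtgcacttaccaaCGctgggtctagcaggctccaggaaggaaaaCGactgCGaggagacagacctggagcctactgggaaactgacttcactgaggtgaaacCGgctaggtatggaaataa
Gm46950: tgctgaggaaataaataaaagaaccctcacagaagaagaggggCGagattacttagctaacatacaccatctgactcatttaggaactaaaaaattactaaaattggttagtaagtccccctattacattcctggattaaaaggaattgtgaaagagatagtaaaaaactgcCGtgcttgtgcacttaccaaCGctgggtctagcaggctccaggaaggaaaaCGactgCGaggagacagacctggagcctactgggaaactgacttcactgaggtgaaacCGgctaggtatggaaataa

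Protein-coding starts in wide domains were poorer in CG than starts in no domain. The promoter table holds 16457 of 20560 autosomal protein-coding genes, and 274 of the 346 (1.68% of 20560) whose bodies met a wide domain. Of its starts 61, from 59 genes, lay in 58 wide domains, or 2.44 per Mb, against 1.83 per Mb in narrower domains and 8.36 per Mb of all autosomal sequence. The number of CG per window was 5 at the median in wide domains (quartiles 1 and 12, highest 42), 8 in narrower domains (quartiles 3 and 14, highest 38, 141 starts) and 14 in no domain (quartiles 4 and 25, highest 67, 19883 starts). The Orc6 window held 30 CG, that of Zfp629 42, that of Gm13304 5 and that of Slc22a13 none. A ratio of observed to expected CG of at least 0.6, a usual mark of a CpG island, was met by 14 of 61 starts in wide domains (23.0%), against 42 of 141 in narrower domains (29.8%) and 49.2% of starts in no domain. Among all autosomal protein-coding starts 48.9% met it. No CG at all stood in 9.84% of windows in wide domains, 2.13% in narrower domains and 4.40% in no domain. Long noncoding RNA starts did not follow that order, with medians of 6 CG in wide domains (64 starts), 4 in narrower domains (242 starts) and 4 in no domain (11005 starts). Their share with a ratio of at least 0.6 was lowest in wide domains, at 9.38%, against 20.2% in narrower domains and 13.98% in no domain.

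**Figure D1:**
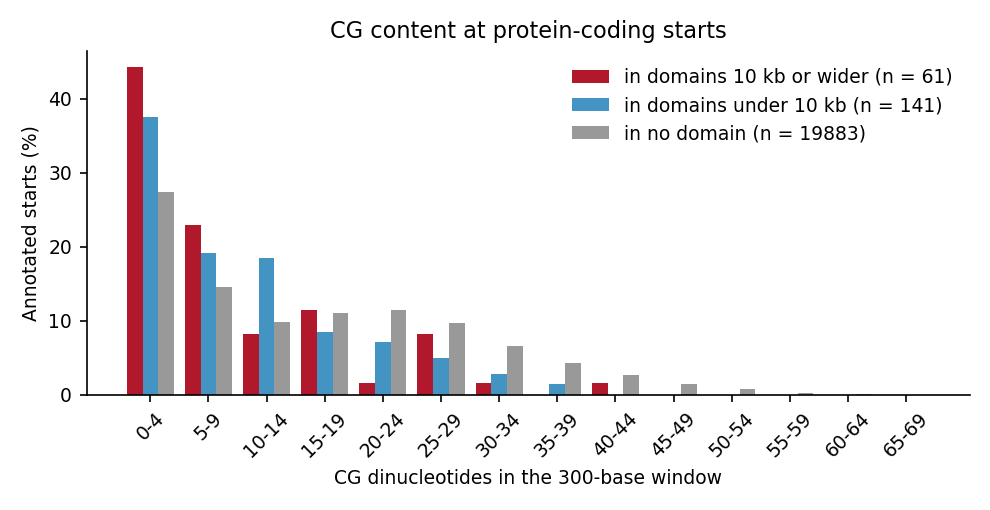
Share of annotated protein-coding starts (y axis, percent of each set) by the number of CG dinucleotides in the 300-base window (x axis, bins of 5), for starts in wide domains, in narrower domains and in no domain. The lowest bin, 0 to 4 CG, holds 44.3% of starts in wide domains, 37.6% in narrower domains and 27.4% in no domain.

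Starts that repeat another annotated start made up a larger share in wide domains than elsewhere. A window was counted as copied when at least 50% of its 25-base words also stood in the window of another gene elsewhere on the autosomes. That held for 14 of 61 protein-coding starts in wide domains (23.0%), 12 of 141 in narrower domains (8.51%) and 3.92% of those in no domain. For long noncoding RNA starts it held for 9 of 64 in wide domains (14.1%), 23 of 242 in narrower domains (9.50%) and 1.51% in no domain. At 80% of words shared, the protein-coding shares were 6.56% in wide and 3.55% in narrower domains. This comparison was chosen after the data were seen.

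Joined by shared words, these starts fell into 13 families with at least 1 member in a wide domain. The family of Gm46854 and Gm46950 has 5 long noncoding RNA starts on 3 chromosomes, of which 4 lay in wide domains and 1, that of Gm46754 at base 94806263 of chromosome 2, in none. The Gm46754 window is identical to that of LOC115486431, which starts in a wide domain on chromosome 4, so the same 300 bases occurred inside and outside the listed domains. The family of Gm45978 and Gm52666 has 5 protein-coding starts on 4 chromosomes, with 2 in wide domains, 2 in narrower domains and 1 in none. That of Gm46911 and Gm52796 has 4, with 2 in wide domains, 1 in a narrower domain and 1 in none. Some of the other families are local clusters, while those of Gm30618, Gm33887, Gm39637 and LOC108167564 span 2 or 3 chromosomes. Cyp2c40 and Cyp2c69, a pair of neighbouring cytochrome P450 genes on chromosome 19, both start in wide domains, and of 28 related starts around Gm8232 and Gm8256 on chromosome 14 these 2 did while 26 lay in no domain. Genes of such copies share sequence, so reads from one copy can be counted at another, and the treatment of such reads by the authors is not known here.

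Of 919 autosomal microRNA hairpins in the RefSeq table, 2 lay in a wide domain (0.218%) and 9 in narrower domains (0.979%), while wide domains took 1.04% and narrower ones 3.20% of the autosomes. Both were in the same domain of 11.25 kb on chromosome 17 (27348301 to 27359550), 2.36 kb apart, with no other annotated gene in it. The mature sequences of Mir7217 are shown with the seed, bases 2 to 8, in capitals, and the seeds of its 2 arms differ.
mmu-miR-7217-5p: aACUUGUAucuugugagacagaagg
mmu-miR-7217-3p: uGAGAACCcacaagcaagaaga

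Wide domains mostly lay close to the width that defines them. Widths had a median of 12.3 kb and quartiles of 10.95 and 15.0 kb (narrower domains 2.70, 1.65 and 4.05 kb), and 1269 of 1700 (74.6%) were under 15 kb. Another 264 spanned 15 to under 20 kb, 148 spanned 20 to under 50 kb, 15 spanned 50 to under 100 kb and 4 were 100 kb or wider. Although they were 6.61% of autosomal domains, wide domains held 25.0 Mb, or 24.5% of the 101.9 Mb of autosomal domain sequence. Just inside the threshold stood 71 domains of 10.05 kb, the first of them on chromosome 1 at 8188651 to 8198700, 17521801 to 17531850 and 31929301 to 31939350. Just outside stood 79 domains of 9.90 kb, the first on the same chromosome at 7347901 to 7357800, 37275901 to 37285800 and 47870851 to 47880750.

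The 10 widest members were of several kinds. The widest, 148 kb on chromosome 15 (38734201 to 38882550), met no annotated gene and lay 41.8 kb from a protein-coding one. Another 2 stood side by side on chromosome 4, at 122203651 to 122304300 (100.65 kb, over the predicted gene Gm10573 and a long noncoding RNA gene) and 122324551 to 122445450 (120.9 kb, over no annotated gene). On chromosome 14, 44608651 to 44712600 (103.95 kb) held Gm8256 and 2 pseudogenes. So of the 4 domains of 100 kb or more, 2 met no annotated gene and 2 met genes or pseudogenes with predicted symbols.

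Of the other 6, 4 lay over named genes. A domain of 90.45 kb on chromosome 3 (131373301 to 131463750) lay within Sgms2, a sphingomyelin synthase gene, and 1 of 64.2 kb on chromosome 2 (59056351 to 59120550) within Ccdc148. Ccl21b, a chemokine gene whose product guides lymphocytes to lymph nodes, met a domain of 63.45 kb on chromosome 4 (42189151 to 42252600) that also held 3 pseudogenes. Col6a4, a collagen VI chain gene, met a domain of 63.15 kb on chromosome 9 (106059901 to 106123050). A domain of 72.45 kb at 42365851 to 42438300 of chromosome 4, 2.1 kb from another wide domain, held 2 pseudogenes, and 1 of 68.1 kb at 61343851 to 61411950 met no gene. Of these 10, 5 were on chromosome 4.

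Wide domains were unevenly spread over the chromosomes, and their share of the listed domains differed between them. Chromosome 17 had the most per Mb, 1.14, and chromosome 2 the fewest, 0.274, against 0.707 over all autosomes. As a share of the domains on a chromosome, wide ones ran to 9.74% on chromosome 7, 9.55% on 17 and 9.16% on 5. The lowest shares were 3.22% on chromosome 2 and 3.95% on chromosome 19, where 18 wide domains were listed. On chromosome 4 they held 32.4% of domain bases, the highest share, and on chromosome 2 14.4%, the lowest. The median width of wide domains differed little, from 11.85 kb on chromosome 9 to 12.975 kb on 19.

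**Figure D2:**
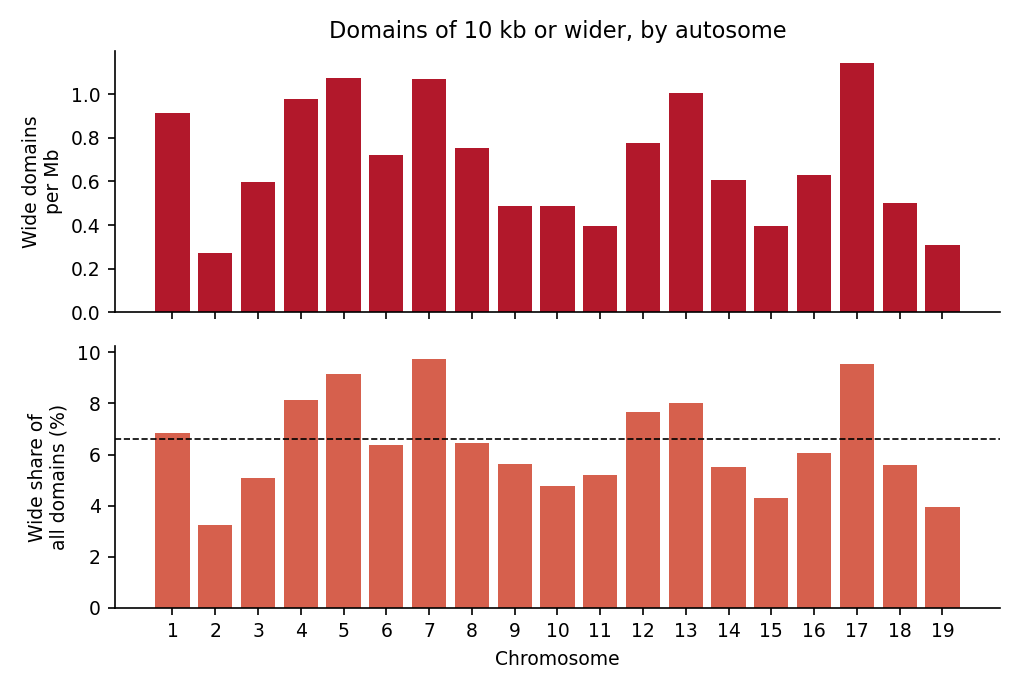
Wide domains per Mb of sequence after the first 3 Mb (upper panel, y axis) and as a percent of the listed domains (lower panel, y axis) for each autosome (x axis), with the share over all autosomes, 6.61%, as a dashed line. Chromosomes 5, 7 and 17 are highest in both panels and chromosome 2 is lowest in both.

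Wide domains leaned more to the centromere side than narrower ones. Mouse autosomes have their centromere at the start of the sequence. In the 10 Mb after base 3000000 lay 274 of 1700 wide domains (16.1%, CI 14.4 to 18.0%), against 2652 of 24030 narrower ones (11.0%, CI 10.6 to 11.4%), and this stretch is 7.91% of the sequence. The share was higher for wide than for narrower domains on 14 of 19 autosomes. It was 19 of 44 on chromosome 18 (43.2%, against 17.7% of narrower domains) and 25 of 59 on chromosome 9 (42.4%, against 19.3%). Chromosome 19 had 3 of its 18 wide domains there (16.7%), against 23.3% of narrower ones. At the distal 10 Mb the values were 108 wide domains (6.35%, CI 5.24 to 7.62%) and 1386 narrower ones (5.77%, CI 5.48 to 6.07%), and these intervals overlap.

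**Figure D3:**
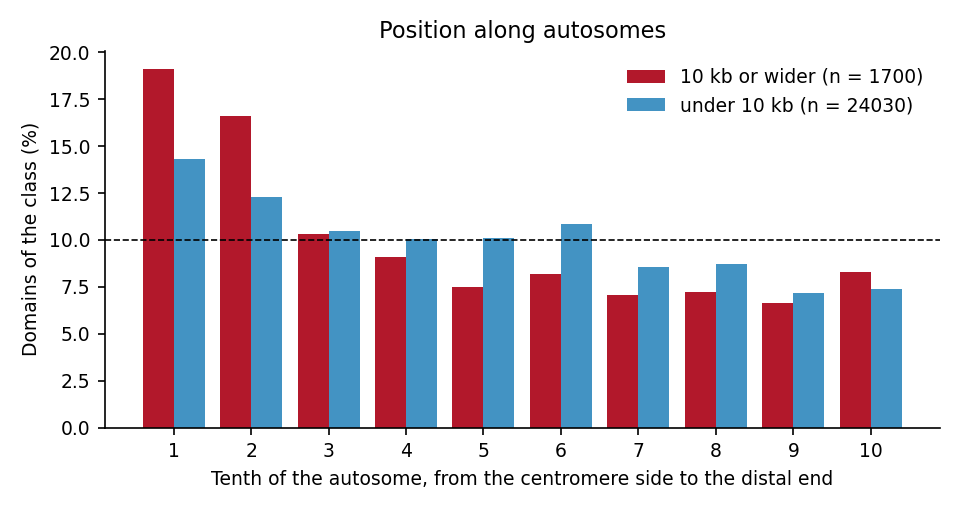
Percent of wide and of narrower domains (y axis) in each of 10 equal stretches of the autosomes (x axis, from base 3000000 at the centromere side to the distal end), with an even spread as a dashed line at 10%. The first 2 stretches hold 19.12% and 16.6% of wide domains, against 14.3% and 12.3% of narrower ones.

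Wide domains had closer neighbours. The median gap from a domain's boundary to the nearest other domain was 12.9 kb for wide domains (quartiles 5.10 and 35.6 kb) and 19.95 kb for narrower ones (quartiles 7.80 and 48.0 kb), and it was shorter for wide domains on 18 of 19 autosomes. Within 100 kb on either side, 9.93% of the bases lay in other domains for wide domains and 6.77% for narrower ones, against 4.24% of the autosomes as a whole. That flanking share was higher for wide domains on each of the 19 autosomes. Of it, 3.51% of flank bases belonged to other wide domains beside wide ones and 1.76% beside narrower ones, while wide domains take 1.04% of the autosomes. The smallest gap in the list, 750 bases, stood beside 1 wide and 7 narrower domains, and 6.06% of wide domains, against 3.77% of narrower ones, had a neighbour within 2 kb. Isolation was less common among wide domains, with 117 wide domains (6.88%) and 2465 narrower ones (10.3%) lacking any neighbour within 100 kb.

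Other wide domains in particular were nearer. The nearest wide domain was 228 kb away at the median for wide domains and 439 kb for narrower ones. A wide domain within 50 kb was found for 353 of 1700 wide domains (20.8%, CI 18.9 to 22.8%) and 2942 of 24030 narrower ones (12.2%, CI 11.8 to 12.7%), and the share was higher for wide domains on 15 of 19 autosomes. Of immediate neighbours along the chromosome, 9.31% of those beside wide domains were wide, against 6.41% beside narrower ones. Neighbours were closer for wider members. A wide domain lay within 50 kb of 17.7% of members under 15 kb, 24.6% of those from 15 to under 20 kb and 37.7% of those of 20 kb or more, and the median gap to any domain was 13.95, 11.2 and 8.25 kb in that order.

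**Figure D4:**
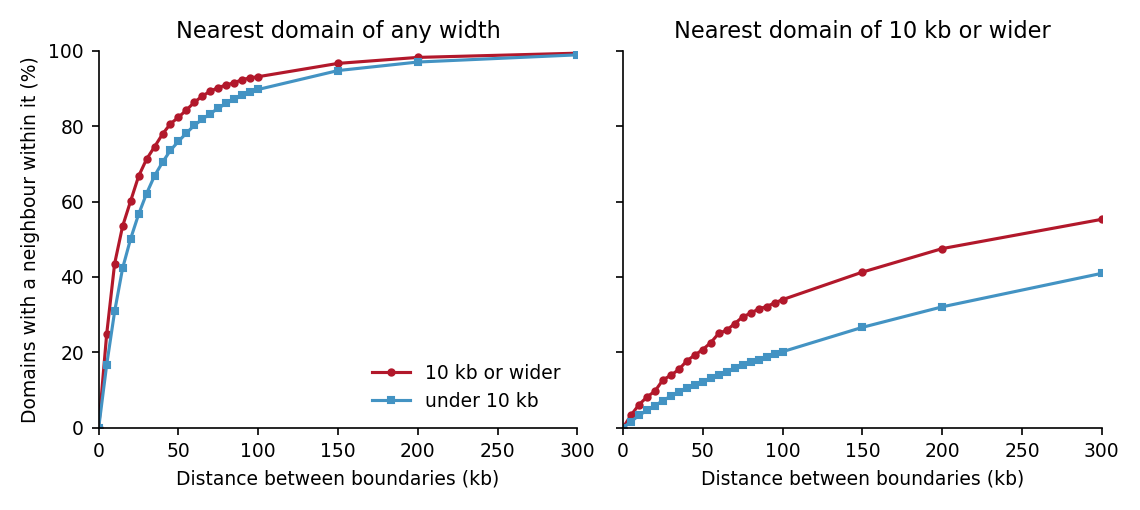
Cumulative percent of wide and of narrower domains (y axes) with a neighbour within the distance on the x axes (kb between boundaries), for neighbours of any width (left) and for wide neighbours (right). The curve for wide domains lies above that for narrower ones in both panels, and at 50 kb the right panel reads 20.8% against 12.2%.

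Clusters of wide domains were mostly pairs. Joined where gaps were at most 50 kb, the 1700 domains made 1347 single domains, 123 pairs and 31 longer runs, of which 21 held 3 domains and the longest 6. The 154 runs of at least 2 held 353 domains, with a median span of 58.65 kb, and 96 of them (62.3%) had no protein-coding gene in their span. The run of 6 lay on chromosome 12, from 20775751 to 21021450, where wide domains covered 46.9% of 245.7 kb. A run of 5 on the same chromosome, 18126151 to 18306150, was covered over 40.4%, and another run of 5 on chromosome 4, 60265051 to 60416700, over 76.3%. None of these 3 runs had a protein-coding gene in its span.

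The other 2 of the 5 longest runs held protein-coding genes. On chromosome 6, 4 wide domains from 128899651 to 129093450 met 4 of 4 protein-coding genes of the span, namely Clec2g, Clec2f, Clec2e and Klrb1f, which encode C-type lectins and a natural killer cell receptor. Clec2f had 54.2% of its body in a wide domain, Clec2g 20.4%, Clec2e 18.0% and Klrb1f 6.65%. On chromosome 1, a run of 4 from 58758901 to 58939800 met Casp8, the initiator caspase of death receptor signalling (22.1% of its body), the predicted gene Gm28802 (57.2%) and Trak2, an adaptor of mitochondrial transport (15.6%). Runs were ordered by number of domains, then by span. Beyond that rule, and named after the values were seen, a run of 4 on chromosome 17 (35999101 to 36109350) met 4 of the 6 protein-coding genes of its span, H2-T24, H2-T-ps, Gm6034 and Gm11127, in a region of nonclassical MHC class I genes.

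In windows of 1 Mb, 1425 of 2413 held no wide domain, whereas 25 held no narrower one. The 162 windows with 3 or more wide domains, 6.71% of windows, held 641 of them (37.7%), and 12.1% of narrower domains. These windows were picked by their number of wide domains, so the 2 shares do not measure clustering. Mean numbers of wide domains per window were 0.268 where a window had 0 to 4 narrower domains and 2.06 where it had 20 or more. Across windows the numbers of wide and narrower domains had a Pearson r of 0.441 and a Spearman rho of 0.376 (n = 2413 windows of the same 19 chromosomes, which are not independent). The fullest window, named after its value was seen, was 18 to 19 Mb of chromosome 12, with 13 wide and 21 narrower domains. Its protein-coding genes were Zfp996, 5730507C01Rik and 3 predicted genes. Some of the other full windows, also named after their values were seen, lay over gene clusters. On chromosome 4, both windows from 60 to 62 Mb, over the cluster of major urinary protein genes (Mup), held 7 wide domains, and the 1 Mup gene to meet one was Mup-ps12, over 10.4% of its annotated body. The window from 22 to 23 Mb of chromosome 13, with histone and Vmn1r pheromone receptor genes, held 8, and no gene of either family met one. In the window from 104 to 105 Mb of chromosome 5, with 8 wide domains, 4 of the 16 protein-coding genes met one, namely Nudt9 (30.4% of its body), Gm31255 (59.1%), Gm20385 (57.8%) and Zfp951 (40.7%).

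Wide domains held less protein-coding gene sequence than the autosomes as a whole, as narrower ones did, and more pseudogene sequence than either. Shares of bases are used here because a wider domain is more likely to touch a gene. Protein-coding bodies took 15.9% of wide domain bases and 18.4% of narrower domain bases, against 40.9% of autosomal sequence. Narrower domains of 5 kb or more had 15.99%, close to wide domains, while those from 1 to under 5 kb had 19.6% and those under 1 kb 23.2%. Wide domains stood below the sequence on all 19 autosomes and below narrower domains on 14 of 19. Pseudogene bodies took 3.44% of wide and 1.93% of narrower domain bases, against 1.14% of the sequence. Bodies of long noncoding RNA genes took 5.79% and 6.96%, against 8.89%.

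**Figure D5:**
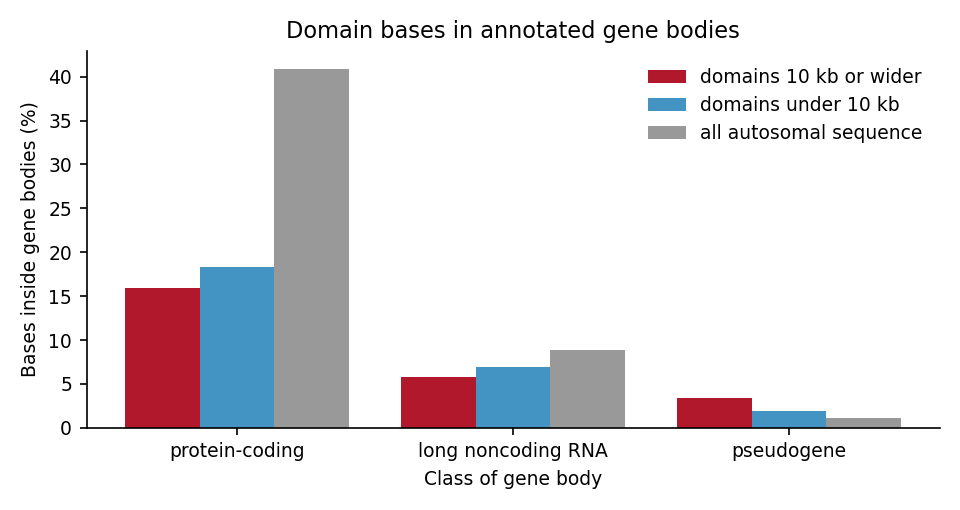
Percent of bases (y axis) that lie in bodies of protein-coding genes, long noncoding RNA genes and pseudogenes (x axis), for wide domains, narrower domains and all autosomal sequence from base 3000000. Wide domains are lowest for protein-coding genes (15.9%) and long noncoding RNA genes (5.79%) and highest for pseudogenes (3.44%).

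Within the set, the relation to genes changed with width. Members under 15 kb had 16.2% of their bases in protein-coding bodies, those from 15 to under 20 kb had 9.06% and those of 20 kb or more 20.8%, which is above the 18.4% of narrower domains. Pseudogene bodies took 2.77%, 2.92% and 5.68% in that order. Of the 167 members of 20 kb or more, 15.0% lay over 100 kb from a protein-coding gene, against 33.9% of members under 15 kb. Over all widths, 344 of 1700 wide domains (20.2%, CI 18.3 to 22.2%) and 4950 of 24030 narrower ones (20.6%, CI 20.1 to 21.1%) met a protein-coding gene. Another 249 wide domains (14.6%, CI 13.0 to 16.4%), against 2615 narrower ones (10.9%, CI 10.5 to 11.3%), stopped within 10 kb of one. Over 100 kb from any lay 534 wide domains (31.4%, CI 29.2 to 33.7%) and 9517 narrower ones (39.6%, CI 39.0 to 40.2%). Where none was met, the median distance to one was 55.4 kb for wide and 99.4 kb for narrower domains. No annotated gene of any kind was met by 1058 wide domains (62.2%) and 16343 narrower ones (68.0%).

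Few protein-coding genes met a wide domain. The count was 346 of 20560 (1.68%), against 2685 (13.1%) that met a narrower one, and 183 of the 346 met wide domains without a narrower one. Among long noncoding RNA genes 180 of 12324 (1.46%) did, and among pseudogenes, those of antigen receptor segments included, 203 of 9402 (2.16%). Genes that met a wide domain were long, with a median of 69.8 kb against 17.6 kb over all protein-coding genes, and the median share of the body inside was 12.5%. The share of genes met was larger in each longer class, at 0.618% under 10 kb, 1.16% from 10 to under 50 kb, 2.92% from 50 to under 200 kb, 7.39% from 200 to under 800 kb and 31.2% from 800 kb. By bases that order was lost, with 0.422%, 0.402%, 0.511%, 0.324% and 0.357% of the bodies in wide domains over the same classes. Each of these shares is below the 1.04% of all autosomal sequence.

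Most protein-coding genes that met a wide domain had neither end in it, but fewer than among genes that met a narrower one. Of 274 genes with a known strand that met one, 162 (59.1%) had neither end inside, 53 (19.3%) had the transcript end alone inside, 38 (13.9%) the start alone and 21 (7.66%) both. For 2120 genes that met narrower domains, neither end was inside in 87.1%, the end alone in 6.604%, the start alone in 5.47% and both in 0.849%. Both sets had somewhat more ends than starts inside. A wider interval meets an end more often wherever it lies, and the shares are not corrected for that.

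Among protein-coding genes with the most sequence in wide domains, Sgms2 came first, with 90.45 kb (52.4% of its body). Ccdc148 had 64.2 kb (18.9%) and Ccl21b 63.45 kb (75.8%). Atp6v0a2, which encodes a subunit of the proton pump of acidic organelles, had 61.8 kb (64.8%) in a domain on chromosome 5 with no other domain within 369.6 kb. Traf5, an adaptor of TNF receptors, had 50.55 kb (53.0%), Pik3c2g, a lipid kinase gene, 50.4 kb (14.2%) and Drc1, which encodes a part of the motor regulator of cilia and flagella, 50.1 kb (58.7%). Cct6a, a subunit of the cytosolic chaperonin, had 49.95 kb (84.5%), the predicted gene Gm4788 44.85 kb (53.8%) and Muc2, the main mucin of the gut, 40.35 kb (62.7%). In this order they lie on chromosomes 3, 2, 4, 5, 1, 6, 5, 5, 1 and 7. The Traf5 domain runs from 192001351 to 192051900, that of Pik3c2g from 139662901 to 139713300 and that of Drc1 from 30289501 to 30339600, each within the gene's annotated body. Which exons or introns lie inside was not analysed here. Each of the 10 met 1 wide domain, and 8 of them met no narrower one, Sgms2 and Pik3c2g being the exceptions.

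Whole gene bodies lay inside wide domains in 26 cases, of which 16 have predicted or clone-based symbols, and 65 genes (0.316% of 20560) had at least 50% inside. By length, the 10 longest of the 26 were H2-T24 (chromosome 17, 36003471 to 36020800, 17.3 kb), a nonclassical MHC class I gene, Tap2 (chromosome 17, 34204479 to 34216321, 11.8 kb), a subunit of the transporter that loads peptides onto MHC class I, Orc6 (8.65 kb), Pnp2 (chromosome 14, 50956141 to 50964751, 8.61 kb), a purine nucleoside phosphorylase gene, and 6 predicted genes. The 6 were Gm8232, Gm8256, Gm40514, Gm46911, Gm52796 and Gm9241, between 4.615 and 5.482 kb long. Other genes of the 26, named after their values were seen, were Ifna13, a type I interferon gene, Fpr3, a formyl peptide receptor gene, and Rnf223. Pnp, next to Pnp2, had 84.7% of its body inside, and Psmg4, which encodes a proteasome assembly chaperone, 95.6%.

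Members that met the most annotated genes lay over clusters. A domain of 33.6 kb on chromosome 12 (88041451 to 88075050) held 8 pseudogenes and no protein-coding gene. On chromosome 1, domains of 10.5 kb (88170301 to 88180800) and 11.85 kb (88108501 to 88120350) met 7 and 5 Ugt1a genes, which encode enzymes that conjugate bilirubin and drugs and share their last exons, so that their bodies overlap. On chromosome 7, 59495851 to 59508000 met Snhg14, the long noncoding host transcript of the Prader-Willi region, with 3 snoRNA genes in it. The remaining one of the 5 with the most genes was the Ccl21b domain.

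Of 18 gene lists, long genes and zinc finger genes had the largest numbers of members that met wide domains. Zinc finger genes, taken by symbol, did so in 14 of 457 cases (3.06%, CI 1.68 to 5.09%), against 1.68% of all protein-coding genes (346 of 20560), which is the lower bound of that interval, with a median length of 17.7 kb, close to that of all genes. Zfp996 had 91.6% of its body inside, Zfp629 88.9%, Zfp575 85.3% and Zfp972 49.8%. Genes over 800 kb met one in 29 of 93 cases (31.2%), and 92 of the 93 met a narrower domain. The 29 include Gm37013, Gm38666 and Gm38667, which overlap on chromosome 18 and met the same wide domain, so they are not separate cases. At width thresholds of 15 and 20 kb the long genes numbered 1 and 0 and the zinc finger genes 6 and 5, so the long genes no longer came first. The largest shares among them were small, 2.69% in Adgrl3, 2.52% in Sntg1, 2.46% in Gpc6 and 1.67% in Magi2.

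Clustered families of enzymes and receptors stood on both sides of the shares over all protein-coding genes, 1.68% for wide and 13.1% for narrower domains. Cytochrome P450 genes met a wide domain in 6 of 99 cases (6.06%, CI 2.26 to 12.7%) and a narrower one in 34 (34.3%), both above those shares, with the largest shares in Cyp2j13 (33.1%), Cyp2b23 (14.7%), Cyp4a29 (12.5%) and Cyp2c40 (9.43%). Among 121 Vmn2r pheromone receptor genes 4 met a wide domain (3.31%, CI 0.908 to 8.25%) and 36 a narrower one (29.8%). The 4 were Vmn2r85 (56.7%), Vmn2r11 (53.5%), Vmn2r97 (34.2%) and Vmn2r60 (18.2%). Median lengths were 22.5 kb for cytochrome P450 and 24.7 kb for Vmn2r genes, against 17.6 kb over all protein-coding genes. No Vmn1r gene of 228 met a wide domain (upper CI bound 1.60%), and 10 met a narrower one (4.39%), at a median length of 0.924 kb. Olfactory receptor genes met a wide domain in 4 of 1103 cases (0.363%), below the 1.68% of all genes but with a median length of 0.951 kb. Protein-coding genes under 10 kb met a wide domain in 0.618% of cases and a narrower one in 2.32%. Olfr11, Olfr1388 and Olfr761 lay wholly inside, and Olfr147 over 32.0%. Numbered Mup genes and clustered serpin genes met a wide domain in 1 of 73 cases, Serpinb1c (3.08%). None of 57 clustered protocadherin genes did, while 13 of these (22.8%) met a narrower domain. Their median length was 90.3 kb, and protein-coding genes from 50 to under 200 kb met a narrower domain in 27.5% of cases. The protocadherin counts cover the listed genes only. Outside that list, the overlapping predicted genes Gm37013, Gm38666 and Gm38667 of chromosome 18 met 1 wide domain, over 10.2 kb.

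Of the imprinted genes several met a wide domain, and of the germline and of the chromatin genes 1 each. Of 61 imprinted genes, long noncoding RNA genes included, 4 met a wide domain (6.56%, CI 1.82 to 15.9%). Over all protein-coding genes the share was 1.68%, and over all long noncoding RNA genes 1.46%. The median imprinted gene was 30.7 kb long, against 17.6 kb over all protein-coding genes. The interval counts Kcnq1ot1 and Kcnq1 separately, although they met the same domain, and the list leaves out Snhg14. Kcnq1ot1, the noncoding RNA that silences its neighbours on the paternal chromosome, had 24 kb inside (28.8%), and the same domain lies in Kcnq1 (7.50%), whose body contains it. Calcr had 12.9% inside and Inpp5f 2.13%. Of 43 meiosis and germline genes, Mov10l1, a helicase of the piRNA pathway, met one (17.0% of its body), or 2.33% (CI 0.0589 to 12.3%). A narrower domain was met by 15 of them (34.9%, against 13.1% of all protein-coding genes), at a median length of 35.5 kb. Protein-coding genes from 10 to under 50 kb met a narrower domain in 8.93% of cases, and those from 50 to under 200 kb in 27.5%. Mbd1, which encodes a protein that binds methylated DNA, was the 1 of 29 methyltransferase, HP1, KAP1 and DNA methylation genes to meet one (3.45%, CI 0.0873 to 17.8%), over 0.246 kb or 1.63% of its body.

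Wide domains met no gene of 5 further lists, and narrower domains met between 1 and 5 genes of each. These were 72 histone genes (1 in a narrower domain, 1.39%), 38 pluripotency genes (3, 7.89%), 60 bivalent developmental regulators (5, 8.33%), 31 genes of the 2-cell stage (4, 12.9%) and 81 ribosomal protein genes (3, 3.70%). Each of these shares was below the 13.1% of all protein-coding genes that met a narrower domain, but the listed genes were shorter. Their median lengths were 0.498, 11.1, 6.76, 4.80 and 3.18 kb in that order, against 17.6 kb over all protein-coding genes. Protein-coding genes under 10 kb met a narrower domain in 2.32% of cases, and those from 10 to under 50 kb in 8.93%. The histone and pluripotency shares were below that of the class of their median length, and the others were above it. With 1.68% of all protein-coding genes met, lists of this size would hold few, and a count of 0 of 38 leaves an upper CI bound of 9.25%. Of 276 ribosomal protein pseudogenes, 3 met a wide domain (1.09%, CI 0.225 to 3.14%), against 2.16% of all pseudogenes, which lies within that interval. The 276 had a median length of 0.5395 kb. The 3 were Rpl9-ps8 over its whole length, Rpl21-ps14 over 88.6% and Rps7-ps2 over 84.9%. Of 490 antigen receptor segments 2 met a wide domain (0.408%), Igkv3-3 over its whole length and Ighv8-11 over 17.3%. That is below the 1.68% of protein-coding genes, but the segments had a median length of 0.4495 kb. The whole loci, annotated as entries of their own, met more wide domains. Igk met 5 (2.02% of its length), Igh 2 (0.927%), Tcra 1 (0.568%) and Tcrg 1 (5.72%).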

How the data were processed

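The series holds 12 H4K20me3 ChIP-seq libraries of 1 embryonic stem cell line, with Drosophila chromatin added to each, per the labels' protocols. The authors deposited 1 list of domains, made with RSEG per its name. It has 3 columns without a header, which place each domain on mm10 in steps of 150 bases, and no score or depth. The tools recorded are bedtools, deepTools, SAMtools 1.1 and Bowtie2 2.3.4.1, per the submitters' processing notes. For RSEG the version and threshold, the libraries and times behind the list, and what was done with reads of several placements are not stated in any source used. The depth behind a domain is therefore unknown.

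Starts were turned to 1-based positions. Domains were compared with 46714 autosomal genes of RefSeq (GRCm38.p6), by at least 1 shared base. Another 328 genes that begin in the first 3 Mb were not used, and a chromosome's end was set to its last gene or domain. Promoter windows and microRNAs came from RefSeq tables of that assembly. No repeat annotation or genome sequence was used. Values were computed in Python 3.11.15 with pandas 2.3.3, scipy 1.17.1 and numpy 2.4.6, figures were drawn with matplotlib 3.10.9, and the interval functions were tested on simulated data.

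The members, gene lists and measures were chosen with earlier results of these data known. Named are the 10 widest members, the 10 protein-coding genes with the most bases and the 10 with the largest body share in wide domains (ties by length), up to 4 genes a list, 3 domains on each side of the threshold, the 5 longest runs and the 5 members with the most genes. CG content and shared words at starts were added after the data were seen. Other widths, merged domains, other distances and other definitions of genes were tried as alternatives.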

Additional observations from a re-analysis of the deposited data

How the results depend on the processing

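Of 43 recomputed main values 18 stayed within the counting interval of the reported value, or for counts within 1.5 times. For shares of bases that interval was drawn as if the share were a count of domains, so it is only a yardstick there. The other main values moved mostly with the width threshold, which also changes the members. At 8 kb, wide domains held 34.3% of domain bases, 27.5% had another within 50 kb (narrower 18.3%) and 533 protein-coding genes met one. At 15 kb these values were 9.78%, 15.1% (narrower 3.71%) and 100, the median gap was 10.65 kb and the proximal share 19.03%, and the share that met a protein-coding gene turned to 21.6%, above the 20.6% of narrower domains. At 20 kb they were 5.37%, 11.4% (narrower 1.68%) and 58, with a median gap of 8.25 kb, and both gene measures turned, with 31.1% that met a gene (narrower 20.5%) and 20.8% of bases in protein-coding bodies (narrower 17.6%). Merging domains closer than 5 kb gave a median gap of 19.35 kb (narrower 26.1 kb), 25.6% with another within 50 kb (narrower 14.8%), 36.3% of domain bases and 13.99% in protein-coding bodies (narrower 19.3%). Without the 10 widest members the share of domain bases was 23.9%. Other definitions gave 9.53% of wide domains in the proximal 5 Mb (narrower 5.76%), 47.5% with another within 200 kb (narrower 32.1%), 14.2% of bases in genes without Gm and Rik symbols (narrower 17.3%), 14.9% with the midpoint in a gene (narrower 19.8%) and 65 genes with at least 50% of the body inside. Without the proximal 10 Mb, chosen after seeing the data, the median gap was 13.8 kb (narrower 21.0 kb) and 19.9% had another within 50 kb (narrower 11.1%). With 80% of words shared, also chosen then, 6.56% of protein-coding starts in wide domains were copied (narrower 3.55%). Of 90 counts of list members recomputed under the widths, the merging and without the 10 widest, 57 stayed within 1.5 times. The cause of these changes was not tested beyond the construction of each alternative. No paired analysis was possible because the list names no sample, and for the same reason no replicate could be left out.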
